A study of Mus musculus with 9 samples.

Results

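The genes described here are 8 enzymes that add methyl groups to lysine 36 of histone H3 (H3K36) or remove them, among the 12842 genes profiled by RNA-seq in cultured mouse prostate cancer cells. They were chosen by name: Whsc1 (the earlier symbol of Nsd2), Whsc1l1 (the earlier symbol of Nsd3), Nsd1, Ash1l and Setd2 are methyltransferases, and Kdm2a, Kdm2b and Kdm4a are demethylases. All 8 had a single row in the table and passed the filter on low values in each comparison. The study asked what depends on NSD2 in these cells. It profiled a line isolated from lung metastases of mice whose engineered alleles, among them KrasLSL-G12D/+ and R26R-YFP, all groups therefore share. There were 3 groups of 3 poly-A libraries: control cells, cells with shRNA against Nsd2 (shNsd2) and cells treated with an MCTP compound. Nsd2 stands in the title of each shNsd2 library, but another label gives Nsd2 for replicate 1, Nsd3 for replicate 2 and Nsd4 for replicate 3. The labels of the MCTP libraries give the compound numbers 39, 40 and 41 for replicates 1, 2 and 3, and the study describes number 39 alone. The paper describes a luciferase shRNA as the control vector, more than 1 shRNA clone for each gene, and doses and a duration of MCTP-39 for human cells, but ties none of these to the libraries used here. Nothing states that the replicates were separate cultures, so p-values measure only the spread between these libraries.

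Methylation of H3K36 marks transcribed chromatin and is written in steps. Nsd2, Nsd3, Nsd1 and Ash1l place the mono- and dimethyl marks, whereas Setd2, which travels with elongating RNA polymerase II, places the trimethyl mark. Kdm2a and Kdm2b remove the dimethyl mark and bind unmethylated CpG islands, and Kdm4a removes the trimethyl mark. Gain of dimethylation by overactive NSD2 is known from several cancers, including advanced prostate cancer.

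Expression is given on the scale of the deposited table, read here as log2 values scaled between libraries, although no transform is named for them. On that reading 1 unit is a doubling for well expressed genes such as these, and values on a linear scale rest on it. The table holds no read counts, and the depth of each library is therefore unknown. Differences are log2 fold changes with their standard error and an adjusted p from limma, and a gene passed the test at an adjusted p under 0.05. Values come from bulk RNA, in which a shift in the kinds of cells cannot be told apart from a change of RNA per cell.

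The libraries of the MCTP group differed from each other more than those of the other groups. The median standard deviation of a gene within the group was 0.0839 in MCTP cells, 0.0501 in control cells and 0.0428 in shNsd2 cells. MCTP replicate 2, labelled with compound 40, lay nearer to the control libraries than MCTP replicates 1 and 3 for several of the 8 enzymes, so the MCTP results of the 8 enzymes are also given without it. It was singled out by its values and not in advance, so an adjusted p without it is not a separate result. Without it the methyltransferases all fell further with MCTP, and without control replicate 1 they fell less. Control replicate 1 was the highest control library for Nsd1, Setd2 and Whsc1l1. With it left out, their MCTP differences were -0.43, -0.34 and -0.15 (adjusted p = 0.0372, 0.182 and 0.319). The differences between libraries moved with the base composition of transcripts. Among the 2988 genes with the lowest GC content (at most 45.5%), the median deviation from the mean of all 9 libraries was -0.145, 0.061 and -0.213 in MCTP replicates 1, 2 and 3. It was 0.170, 0.055 and 0.018 in the control libraries and -0.009, -0.021 and 0.085 in the shNsd2 libraries. Among the 2988 genes with the highest GC content (at least 55.0%), MCTP replicates 1 and 3 were high instead, at 0.069 and 0.123, and MCTP replicate 2 was at -0.053. The transcripts of Ash1l, Setd2, Nsd1 and Whsc1l1 are AT-rich, with a GC content of 45.4, 44.3, 46.5 and 46.9%, against a median of 50.2% over 12513 genes, whereas those of Kdm2b and Kdm4a have 52.6 and 53.6%. The transcript of Kdm2a has 48.3%, also below the median, and Whsc1 has 41.4 or 47.6%, by the transcript used. Nsd1 and Whsc1l1 thus lie above the limit of 45.5%. The longest transcripts have 12784 nt for Nsd1, 11644 nt for Ash1l, 10105 nt for Whsc1l1 and 8350 nt for Setd2. A correction for transcript length moved the MCTP differences of Nsd1, Ash1l and Whsc1l1 further than a correction for GC content. For Whsc1, with its longest transcript, it moved that difference less. The deviation of each library along transcript length was not summarized.

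In shNsd2 against control cells, 2 of the 8 enzymes passed the test: Whsc1 fell and Kdm2b rose. The background was wide, since 23.1% of the 12205 genes tested were higher and 24.8% were lower. In MCTP against control cells, 3 of the 8 passed, and Whsc1, Nsd1 and Ash1l were all lower, whereas 18% of the 12216 genes tested were higher and 17.2% were lower. In shNsd2 against MCTP cells, 6 of the 8 passed. Nsd1, Ash1l, Setd2, Kdm2b and Kdm4a were higher in shNsd2 cells and Whsc1 was lower, against a background of 20.6% higher and 22.6% lower among 12217 genes. Libraries were fully separated between groups for 3 of the 8 enzymes in shNsd2 against control cells, where 57.2% of all genes were separated so, for 4 of 8 in MCTP against control cells (50.6% of all genes) and for 6 of 8 in shNsd2 against MCTP cells (55% of all genes). The comparisons with control cells share the control libraries, and shNsd2 against MCTP cells reuses the shNsd2 and MCTP libraries of those comparisons. The median log2 fold change of the 8 enzymes was -0.01 with shNsd2 and -0.25 with MCTP, and 0.26 between shNsd2 and MCTP cells, and over all genes tested it was 0.00, -0.01 and 0.01. The number of genes called rested on single libraries wherever MCTP cells took part. In MCTP against control cells it was 4305, rose to 7384 with 5 of the 8 enzymes without MCTP replicate 2, and lay between 2046 and 2842, with 2 of the 8 enzymes, without any of the other 5 libraries. In shNsd2 against MCTP cells it was 5276, and 3391, 3429 and 3420 without MCTP replicate 1, shNsd2 replicate 2 and shNsd2 replicate 3.

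**Figure D1:**
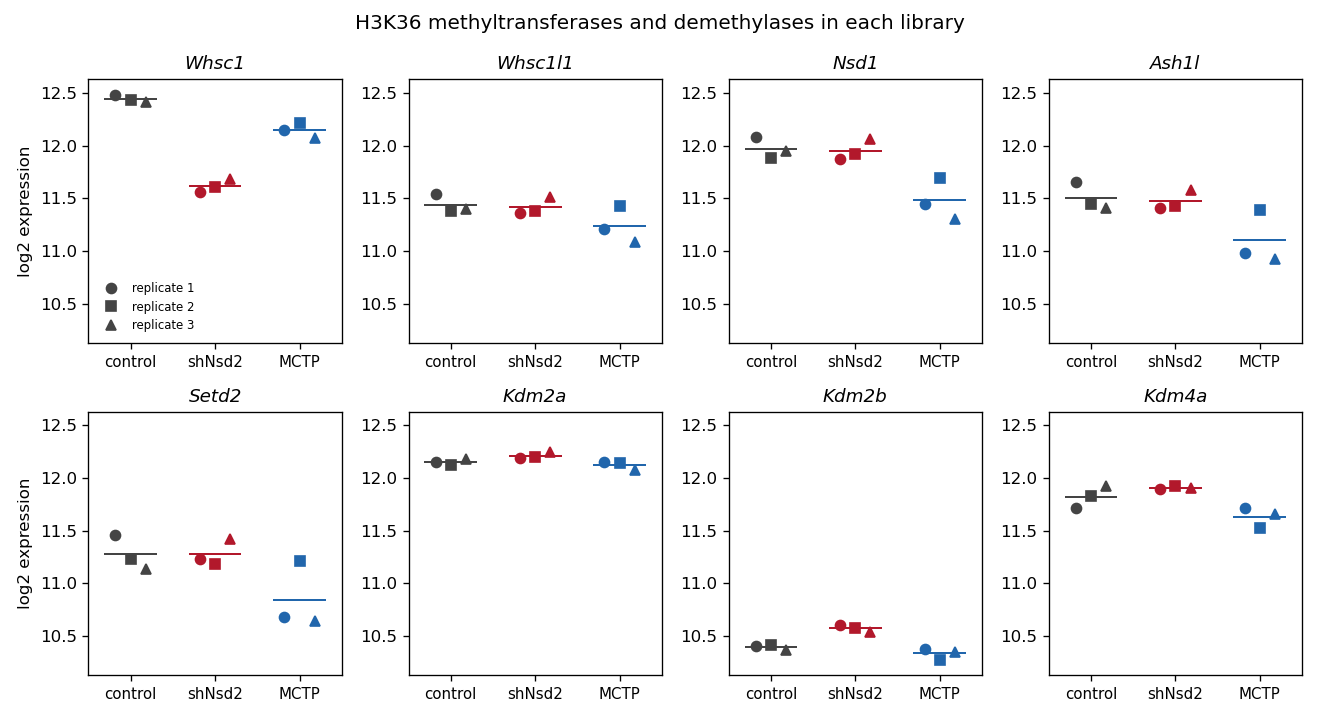
Log2 expression of the 8 enzymes (vertical axis, the same range in each panel) in control, shNsd2 and MCTP libraries. Each point is a library, its shape gives the replicate number, and lines are means of 3 libraries. Whsc1 lies between 11.56 and 11.68 in shNsd2 libraries and at 12.42 or above in control libraries, and MCTP replicate 2 lies at 11.21 for Setd2, above 10.68 and 10.65 in the other MCTP libraries.

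Whsc1 (ENSMUSG00000057406.8), the target of the shRNA, is on chromosome 5 (33820725 to 33897975, + strand, GRCm38). It was expressed at 12.48, 12.43 and 12.42 in the control libraries, 11.56, 11.61 and 11.68 in the shNsd2 libraries, and 12.15, 12.21 and 12.07 in the MCTP libraries. The groups did not overlap, and MCTP libraries lay between the others. All 3 shNsd2 libraries were low, including those whose other label names Nsd3 or Nsd4. Its difference from control cells was -0.83 with shNsd2 (standard error 0.0408, adjusted p = 2.26e-06) and -0.30 with MCTP (standard error 0.0537, adjusted p = 0.00562). Directly compared, shNsd2 was below MCTP by -0.53 (standard error 0.0558, adjusted p = 0.000424). An exact two-sided permutation test gave p = 0.1 in each of these comparisons, the smallest p possible with 3 libraries against 3. On a linear scale, Whsc1 in MCTP cells was at 81.5, 85.1 and 77.3% of the control mean, and in shNsd2 cells at 54.0, 56.0 and 59.0%. The last 60 bp of the gene overlap Nelfa on the opposite strand, and whether reads were counted by strand is not stated.

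The size of the MCTP difference of Whsc1 depended on which transcript stood for the gene in a correction for GC content. The longest protein-coding transcript of Whsc1 has 9 exons and a GC content of 41.4%, and with it the corrected log2 fold change was -0.10 (adjusted p = 0.188), which ended the call. The protein-coding transcript with the most exons has 23 exons and 47.6% GC, and with it the value was -0.25 (adjusted p = 0.000937). That second form of the correction was chosen after the data had been seen. Corrected in the first way, Whsc1 was 12.30, 12.38 and 12.40 in the control libraries and 12.32, 12.14 and 12.32 in the MCTP libraries, so that the groups overlapped. The shNsd2 difference moved little, to -0.77 and -0.79 with the respective transcripts. A correction for transcript length also brought the MCTP difference down, to -0.16 (adjusted p = 0.0203). Without MCTP replicate 2 it was -0.33 (adjusted p = 0.000272), and the direct difference of shNsd2 from MCTP was -0.49. Which transcripts of Whsc1 the cells made was not tested.

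The other dimethyl-class writers did not pass the test with shNsd2. Whsc1l1 (ENSMUSG00000054823.8, chromosome 8, 25601601 to 25719667, + strand), a paralog of Whsc1, was 11.54, 11.38 and 11.40 in control libraries and 11.36, 11.38 and 11.51 in shNsd2 libraries. These groups overlapped, and the shNsd2 library whose other label names Nsd3 was at 11.38, level with the lowest control library to 2 decimals. The log2 fold change of Whsc1l1 was -0.02, with a 95% confidence interval from -0.15 to 0.10 (adjusted p = 0.744). Nsd1 was 12.08, 11.88 and 11.95 in control libraries and 11.87, 11.92 and 12.06 in shNsd2 libraries, with a log2 fold change of -0.02 and an interval from -0.16 to 0.12 (adjusted p = 0.824). Ash1l (ENSMUSG00000028053.7, chromosome 3, 88950622 to 89079375, + strand), a trithorax-group enzyme, was 11.65, 11.44 and 11.41 in control libraries and 11.41, 11.43 and 11.58 in shNsd2 libraries. Its log2 fold change was -0.03, with an interval from -0.18 to 0.13 (adjusted p = 0.758). Ash1l overlaps Dap3 by 560 bp on the opposite strand. The upper bounds of these intervals were thus 0.10, 0.12 and 0.13, and the sign of these small differences changed with the corrections for GC content and transcript length.

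With MCTP, Nsd1 and Ash1l fell. Nsd1 (ENSMUSG00000021488.6) was 11.45, 11.69 and 11.30 in the MCTP libraries, each below every control library. Nsd1 differed from control cells by -0.49 (standard error 0.101, adjusted p = 0.00968), by -0.60 without MCTP replicate 2 (adjusted p = 6.39e-05), by -0.47 without MCTP replicate 1 (adjusted p = 0.0497) and by -0.40 without MCTP replicate 3 (adjusted p = 0.0207). The same MCTP libraries were also all below the shNsd2 libraries, and Nsd1 was higher in shNsd2 cells by 0.47 (standard error 0.101, adjusted p = 0.00845), or 0.58 without MCTP replicate 2. On a linear scale Nsd1 was at 69.3, 82.4 and 62.9% of the control mean. After correction for GC content the log2 fold change of Nsd1 with MCTP was -0.42 (adjusted p = 0.00231), and after correction for transcript length it was -0.30 (adjusted p = 0.00393). Nsd1 is on chromosome 13 (55209782 to 55318325, + strand, GRCm38).

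Ash1l was 10.98, 11.39 and 10.93 in the MCTP libraries. Replicate 2 was close to the lowest control library, at 11.41, and the groups were separated by 0.0175 only. Ash1l differed from control cells by -0.40 (standard error 0.126, adjusted p = 0.0417). It was -0.55 without MCTP replicate 2 (adjusted p = 0.000135). Leaving out any of the other 5 libraries ended the call, with adjusted p from 0.0726 without control replicate 3 and 0.0873 without control replicate 2 to 0.113 without MCTP replicate 3, 0.131 without control replicate 1 and 0.152 without MCTP replicate 1, and so did quantile normalization (adjusted p = 0.0552). The length correction gave -0.22 (adjusted p = 0.0455). Ash1l was higher in shNsd2 than in MCTP cells by 0.37 (standard error 0.120, adjusted p = 0.0395), or 0.52 without MCTP replicate 2. This call was lost under quantile normalization (adjusted p = 0.0532) and without MCTP replicate 1 or 3 or any shNsd2 library (adjusted p from 0.0781 to 0.147).

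Whsc1l1 was 11.21, 11.42 and 11.09 in the MCTP libraries, and replicate 2 was within the control range. The difference from control cells was -0.20 (standard error 0.0907, adjusted p = 0.119). Without MCTP replicate 2 it was -0.29 and passed the test (adjusted p = 0.00266), the only 1 of 15 alternatives in which it did, and without MCTP replicate 3 it was -0.12 (adjusted p = 0.312). The direct difference of shNsd2 from MCTP was 0.18 (adjusted p = 0.147), 0.27 without MCTP replicate 2 (adjusted p = 0.00269) and 0.10 without MCTP replicate 3 (adjusted p = 0.360). After correction for GC content, Whsc1l1 did not pass with MCTP (log2 fold change -0.14, adjusted p = 0.127), nor after the length correction (-0.03, adjusted p = 0.585). The table does not say how reads shared between the Nsd paralogs were assigned.

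Setd2 (ENSMUSG00000044791.9), the trimethyl writer, is on chromosome 9 (110532597 to 110618633, + strand, GRCm38). It was 11.46, 11.23 and 11.14 in control libraries, 11.23, 11.19 and 11.42 in shNsd2 libraries and 10.68, 11.21 and 10.65 in MCTP libraries. Control and shNsd2 values overlapped. MCTP replicates 1 and 3 were below all other libraries, whereas MCTP replicate 2 was among the control values. Its log2 fold change was 0.00 with shNsd2 (interval from -0.19 to 0.19, adjusted p = 0.973, and -0.01 under quantile normalization) and -0.43 with MCTP (standard error 0.154, adjusted p = 0.0616), which missed the threshold. The MCTP difference passed in 5 of 15 alternatives, among them all 9 libraries in 1 fit (adjusted p = 0.0337) and a fit blocked on replicate numbers (adjusted p = 0.0456). Without MCTP replicate 2 the MCTP difference was -0.61 (adjusted p = 0.000152). With the correction for GC content it was -0.30 and passed the test (adjusted p = 0.0425), although the corrected value in MCTP replicate 2 was still 11.17 against 10.77 and 10.80 in the others. The length correction gave -0.29 (adjusted p = 0.0763). Setd2 was higher in shNsd2 than in MCTP cells by 0.43 (standard error 0.148, adjusted p = 0.0475), or 0.62 without MCTP replicate 2. That call was lost under quantile normalization (adjusted p = 0.0603), in a fit without the mean-variance trend (adjusted p = 0.0549) and with any library but MCTP replicate 2 left out (adjusted p from 0.0791 to 0.170).

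Among the demethylases, Kdm2b rose with shNsd2. Kdm2b recruits a Polycomb repressive complex 1 variant to CpG islands, and its gene (ENSMUSG00000029475.11) is on chromosome 5 (122870665 to 122989823, - strand, GRCm38). It was 10.41, 10.42 and 10.37 in control libraries, 10.60, 10.57 and 10.54 in shNsd2 libraries and 10.38, 10.28 and 10.35 in MCTP libraries. Every shNsd2 library was above every control and MCTP library, and control and MCTP libraries overlapped. Kdm2b differed from control cells by 0.17 with shNsd2 (standard error 0.0356, adjusted p = 0.00400), or 115, 113 and 110% of the control mean in the 3 libraries. It was -0.06 with MCTP (adjusted p = 0.339), and -0.04 without MCTP replicate 2 (adjusted p = 0.541). The direct difference of shNsd2 from MCTP was 0.24 (standard error 0.0485, adjusted p = 0.00709), and 0.21 without that library. With the correction for GC content the MCTP difference of Kdm2b was -0.12 and passed the test (adjusted p = 0.0247), whereas the length correction gave 0.0049 (adjusted p = 0.954). Kdm2b overlaps Rnf34 by 627 bp and A930024E05Rik by 470 bp on the opposite strand.

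Kdm2a (ENSMUSG00000054611.8, chromosome 19, 4314419 to 4398285, - strand), the paralog of Kdm2b, did not pass the test in any comparison. It was 12.16, 12.13 and 12.18 in control libraries, 12.19, 12.20 and 12.25 in shNsd2 libraries and 12.15, 12.15 and 12.08 in MCTP libraries. The shNsd2 libraries were above the control libraries by a gap of 0.0104 and above the MCTP libraries by 0.0368, and MCTP and control libraries overlapped. Its log2 fold change was 0.06 with shNsd2 (interval from -0.02 to 0.13, adjusted p = 0.183) and -0.03 with MCTP (interval from -0.14 to 0.08, adjusted p = 0.665), the latter 0.01 once libraries were centred on their medians and -0.04 without MCTP replicate 2 (adjusted p = 0.507). The direct difference of shNsd2 from MCTP was 0.09 (adjusted p = 0.156), and 0.10 without MCTP replicate 2 (adjusted p = 0.0681). After correction for GC content Kdm2a passed the test with shNsd2 against control cells, at 0.09 (adjusted p = 0.0185), and against MCTP cells, at 0.08 (adjusted p = 0.0428). The length correction turned the difference of shNsd2 from MCTP to -0.02 (adjusted p = 0.730). It turned that of MCTP from control cells to 0.12 (adjusted p = 0.129).

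Kdm4a (ENSMUSG00000033326.9, chromosome 4, 118136957 to 118180043, - strand) was 11.71, 11.83 and 11.92 in control libraries, 11.89, 11.92 and 11.91 in shNsd2 libraries and 11.71, 11.53 and 11.66 in MCTP libraries. MCTP replicate 1 and control replicate 1 were nearly equal, and all shNsd2 libraries were above all MCTP libraries. Its log2 fold change was 0.08 with shNsd2 (adjusted p = 0.200) and -0.19 with MCTP (standard error 0.0726, adjusted p = 0.0741), or -0.14 without MCTP replicate 2 (adjusted p = 0.0767). With all 9 libraries in 1 fit the MCTP difference passed (adjusted p = 0.0307). Without control replicate 3 the shNsd2 difference passed the test, at 0.13 (adjusted p = 0.0472), whereas it was 0.03 without control replicate 1 (adjusted p = 0.533). The direct difference of shNsd2 from MCTP was 0.28 (standard error 0.0564, adjusted p = 0.00716), and 0.22 without MCTP replicate 2. Unlike the AT-rich writers, Kdm4a was lowest in MCTP replicate 2. With the correction for GC content the MCTP difference was -0.27 and passed the test (adjusted p = 0.00271). The length correction gave -0.14 (adjusted p = 0.209) and centring on medians -0.16 (adjusted p = 0.156).

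The count of enzymes called with MCTP moved with the correction for GC content, with the libraries included, with the form of the fit and with the normalization. It was 3 of 8 as deposited and 5 of 8 without MCTP replicate 2, when 7384 genes were called in place of 4305. It was 5 of 8 after GC correction with the longest transcript (Nsd1, Ash1l, Setd2, Kdm2b and Kdm4a, without Whsc1) and 6 of 8 with the transcript of the most exons, which added Whsc1. The calls over all genes rose as well, from 4305 of 12216 to 5658 and 5580 of 11940. With all 9 libraries in 1 fit 5 of 8 and 5699 genes were called, with blocks of replicate numbers 4 of 8 and 3399 genes, and under quantile normalization 2 of 8 and 4348 genes. All of the enzymes called were lower. Such a correction takes out a true difference too if it runs along GC content, and which of the values is nearer to the amount of RNA was not tested.

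**Figure D2:**
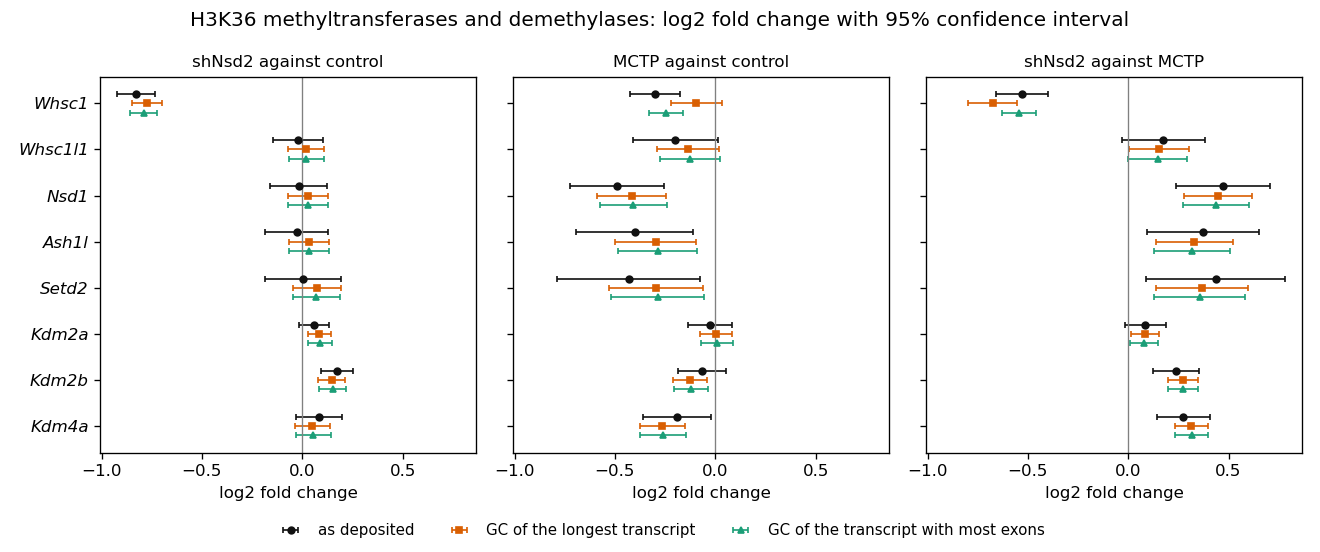
Log2 fold changes of the 8 enzymes (horizontal axis) in the 3 comparisons, with 95% confidence intervals that are not adjusted for the number of genes. Circles are the deposited values, squares and triangles the values after correction for GC content with the longest transcript and with the transcript of the most exons. In MCTP against control cells Whsc1 is at -0.30, -0.10 and -0.25, and Nsd1 is at -0.49, -0.42 and -0.41.

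To compare the genes with each other, the log2 value was reduced by the log2 of the transcript length in kilobases, taken as the union of all annotated exons. In control cells Kdm4a had the highest level per kilobase, 9.29 ± 0.105 (SD, n = 3) on the log2 scale, followed by Whsc1 at 8.37 ± 0.0345 and Kdm2a at 8.30 ± 0.0253. Setd2 at 7.85 ± 0.163 and Nsd1 at 7.84 ± 0.102 did not differ beyond their spread. Ash1l followed at 7.61 ± 0.130, Whsc1l1 at 7.39 ± 0.0878 and Kdm2b at 6.96 ± 0.0244. In shNsd2 cells Whsc1 was at 7.54 ± 0.0631 per kilobase and took place 6 in this order, close to Ash1l at 7.58 ± 0.0913. In MCTP cells it was at 8.07 ± 0.0696 and took place 3, below Kdm2a at 8.27 ± 0.0400. The order depends on the length used, because the union of the exons of Whsc1 (16803 nt) is much longer than its longest protein-coding transcript (7786 nt). With the latter length Whsc1 took place 2 in control cells (9.48 ± 0.0345) and place 3 in shNsd2 cells (8.65 ± 0.0631), and Ash1l was the lowest in control cells (7.96 ± 0.130). In MCTP cells Whsc1 then took place 2 (9.18 ± 0.0696), above Kdm2a (9.03 ± 0.0400).

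As a share of the summed level per kilobase of the 4 dimethyl-class writers on a linear scale, Whsc1 made up 34.6, 36.8 and 36.2% in the control libraries. It made up 24.3, 24.6 and 23.8% in the shNsd2 libraries and 38.1, 34.4 and 38.6% in the MCTP libraries. The shNsd2 libraries were therefore lower, whereas MCTP libraries lay around the control values. Nsd1 took 22.5, 23.1 and 21.8% in MCTP libraries against 25.2, 24.1 and 25.2% in control libraries, and Whsc1l1 took 20.3, 20.3 and 19.8% against 18.3, 18.0 and 18.2%. In shNsd2 libraries Nsd1 took 29.1, 29.4 and 29.7%, a larger share of a smaller sum. With the longest protein-coding transcripts the mean share of Whsc1 was 46.1% in control, 32.8% in shNsd2 and 47.1% in MCTP cells.

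The genes whose pattern was most like that of Whsc1 were found by the root mean square difference over the 9 libraries, after each gene's control mean was subtracted, among 12188 genes. They were 4930523C07Rik (0.0360), Bend6 (0.0581), Rcn1 (0.0617), Arhgef3 (0.0648) and Gpr116 (0.0731). Relative to control cells, 4930523C07Rik was at -0.84 in shNsd2 and -0.33 in MCTP cells. The nearest genes to Nsd1 were Chd2 (0.0317), Sos2 (0.0367) and Cbx5 (0.0418), those to Ash1l were Mphosph8 (0.0260), Strn (0.0281) and 2700089E24Rik (0.0291), and those to Kdm2b were Pigb (0.0169), Incenp (0.0199) and G3bp1 (0.0202). Chd2 was at -0.03 in shNsd2 and -0.51 in MCTP cells relative to control cells, and Mphosph8 was at -0.01 and -0.41.

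Of the other enzymes known to act on H3K36, 7 of 8 listed genes were in the table, and Kdm4d was not in the rows analysed here. With shNsd2, 1 rose and 2 fell, and with MCTP 1 fell. The shares over all genes, to be set beside this and each later list, were 23.1% higher and 24.8% lower with shNsd2, 18% and 17.2% with MCTP, and 20.6% and 22.6% in shNsd2 against MCTP cells. Kdm4c, a trimethyl demethylase related to Kdm4a, was 9.23, 9.10 and 9.10 in control libraries, 8.78, 8.81 and 8.90 in shNsd2 libraries and 8.78, 9.06 and 8.73 in MCTP libraries. Each treated library was below the control libraries, and the difference was -0.31 with shNsd2 (adjusted p = 0.00145) and -0.29 with MCTP (adjusted p = 0.0472), a call that held in 8 of 15 alternatives. The demethylase Riox1, listed as 2410016O06Rik, rose by 0.25 with shNsd2 (adjusted p = 0.00547) and was higher in shNsd2 than in MCTP cells by 0.24 (adjusted p = 0.0224, held in 10 of 15 alternatives). Prdm9, the methyltransferase of meiotic cells, was weakly expressed, with values from 4.64 to 4.92, and was at -0.21 with shNsd2 (adjusted p = 0.000531) and at -0.14 in shNsd2 against MCTP cells (adjusted p = 0.00915).

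Proteins that bind methylated H3K36 carry PWWP, chromo or Tudor domains. Of 20 such genes, 5 rose and 3 fell with shNsd2 (25% and 15%, median log2 fold change 0.06), and 0 rose and 9 fell with MCTP (0% and 45%, median -0.17). With shNsd2, Brpf1, a subunit of a histone acetyltransferase complex, rose by 0.27 (adjusted p = 0.000545), Glyr1 by 0.21 (adjusted p = 0.000864) and Pwwp2b by 0.23 (adjusted p = 0.00642). The comparisons of shNsd2 and of MCTP with control cells share the control libraries, and the share of all genes lower in both was not counted. The 3 readers that fell with shNsd2 also fell with MCTP. They were the chromodomain protein Morf4l1, at -0.20 with shNsd2 (adjusted p = 0.00158) and -0.27 with MCTP (adjusted p = 0.00925), the DNA methyltransferase Dnmt3a, at -0.17 with shNsd2 (adjusted p = 0.0135, held in 13 of 15 alternatives), and Zmynd11, at -0.13 with shNsd2 (adjusted p = 0.0106, held in 12 of 15) and -0.22 with MCTP (adjusted p = 0.0269, held in 9 of 15). With MCTP, lower values were also found for Dnmt3a (-0.22, adjusted p = 0.0206) and the related Dnmt3b (-0.17, adjusted p = 0.0195) and for the mismatch repair protein Msh6 (-0.21, adjusted p = 0.0218), and these calls held in 9, 11 and 10 of 15 alternatives. Across the alternatives the MCTP differences of Dnmt3a, Zmynd11 and Morf4l1 were as small as -0.06, -0.12 and -0.16. In shNsd2 against MCTP cells 8 of 20 readers were higher and 0 were lower (40% and 0%, median 0.12), among them Dnmt3b by 0.26, Msh6 by 0.31, Msl3 by 0.26 and Pwwp2a by 0.48.

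Of 9 genes for partners of Kdm2b in its Polycomb complex, 0 rose with shNsd2. Rybp, at -0.25 (adjusted p = 0.00702, and 0.104 with all 9 libraries in 1 fit), and its paralog Yaf2, at -0.17 (adjusted p = 0.0109, and 0.0512 without shNsd2 replicate 2), fell, and the other 7 did not pass (median of the list 0.05). With MCTP the deubiquitinase Usp7 passed, at -0.25 (adjusted p = 0.0266, held in 10 of 15 alternatives), and the other 8 did not (median -0.16). Usp7 and the core subunit Pcgf1 were higher in shNsd2 than in MCTP cells, by 0.27 and 0.28 (adjusted p = 0.0127 and 0.0137, held in 12 and 14 of 15 alternatives).

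Setd2 acts on chromatin behind RNA polymerase II, and 10 genes of this polymerase and its partners in elongation were listed. With shNsd2, 3 rose and 1 fell (median 0.09), and with MCTP 3 rose and 3 fell (median -0.04). Polr2a, the largest polymerase subunit, was 13.88, 13.85 and 13.89 in control libraries, 14.25, 14.27 and 14.17 in shNsd2 libraries and 14.07, 14.00 and 14.09 in MCTP libraries. These groups were separate, and Polr2a differed from control cells by 0.36 with shNsd2 (adjusted p = 0.000129) and 0.18 with MCTP (adjusted p = 0.0272, held in 9 of 15 alternatives). Of the Paf1 complex, Paf1 rose in both comparisons, by 0.17 and 0.24 (adjusted p = 0.00303 and 0.0141, the latter held in 11 of 15 alternatives), whereas Ctr9 was at -0.14 with shNsd2 (adjusted p = 0.00847) and 0.41 with MCTP (adjusted p = 0.000948). Ssrp1, a subunit of the histone chaperone FACT, was at 0.20 with shNsd2 (adjusted p = 0.00111) and -0.20 with MCTP (adjusted p = 0.0214, held in 10 of 15 alternatives). In shNsd2 against MCTP cells 5 were higher and 2 lower, with Ctr9 at -0.56 and Ssrp1, Supt16h and Leo1 at 0.40, 0.48 and 0.21, of which Leo1 held in 14 of 15 alternatives.

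Methyltransferases use S-adenosylmethionine and the demethylases named here use 2-oxoglutarate. A list of 12 genes held genes of the metabolism of these cofactors and relatives of such genes, and not all of them supply a cofactor. With shNsd2, 2 rose and 4 fell (median -0.01), and with MCTP 0 rose and 3 fell (median -0.08). Ahcy, which clears the S-adenosylhomocysteine that inhibits methyltransferases, was 13.38, 13.51 and 13.47 in control libraries and 13.93, 13.86 and 13.78 in shNsd2 libraries, and rose by 0.40 (adjusted p = 0.000245). Idh1, which makes 2-oxoglutarate, was 11.89, 11.78 and 11.73 in control libraries and 11.22, 11.21 and 11.27 in shNsd2 libraries, a difference of -0.57 (adjusted p = 2.47e-05). D2hgdh, which turns D-2-hydroxyglutarate into 2-oxoglutarate, was at -0.48 (adjusted p = 3.11e-05) and Ahcyl2 at -0.26 (adjusted p = 0.00118). With MCTP, Ahcyl1 was at -0.28 (adjusted p = 0.00611), the methionine synthase Mtr at -0.27 (adjusted p = 0.00618, but -0.13 and 0.153 after the length correction) and Ahcyl2 at -0.16 (adjusted p = 0.0477, held in 5 of 15 alternatives). In shNsd2 against MCTP cells 3 were higher and 2 lower, with Mtr and Ahcy at 0.39 and 0.51 and D2hgdh and Idh1 at -0.54 and -0.41.

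The summed level of 10 proliferation markers was lower in the MCTP libraries. That level, to which Top2a added most, was 16.21, 16.13 and 16.04 in control libraries, 16.23, 16.20 and 16.24 in shNsd2 libraries and 15.88, 15.95 and 15.83 in MCTP libraries on the log2 scale. With MCTP 1 marker rose and 3 fell, with Ccne1 at 0.36, Pcna at -0.34, Mki67 at -0.54 and Top2a at -0.38, and the calls of Mki67 and Top2a each held in 10 of 15 alternatives. Mki67 was 12.67, 13.15 and 12.62 in MCTP libraries, so that replicate 2 was near the lowest control library at 13.16, as for Ash1l. With shNsd2 3 rose and 1 fell, with Ccne1 at 0.41, Mcm5 at 0.34, Mcm2 at 0.19 and Ccna2 at -0.24. In shNsd2 against MCTP cells 5 were higher and 0 lower, with Pcna, Top2a, Mcm2 and Mcm5 at 0.34, 0.55, 0.32 and 0.40. The part of proliferation in the values of the H3K36 enzymes was not tested.

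Epithelial and mesenchymal genes were both expressed. Of 15 epithelial and prostate markers 11 were in the table, with Krt8 the most abundant in control and shNsd2 libraries and Krt19 in MCTP libraries, and their summed level was 17.55, 17.73 and 17.68 in control, 17.52, 17.46 and 17.36 in shNsd2 and 17.92, 17.70 and 18.06 in MCTP libraries. Hoxb13 was well expressed in control cells, with a mean of 10.28, whereas Epcam was below the filter and Krt5, Cldn7 and Pbsn were not in the rows analysed here. Of the 10 tested, 1 rose and 7 fell with shNsd2, with Krt14 at 0.78, Cldn4 at -0.39 and Krt19 at -0.34, and 4 rose and 1 fell with MCTP, with Krt14 at 1.19, Cldn4 at 0.33, Tmprss2 at 0.31 and Cdh1 at -0.34, of which Cldn4 held in 14 of 15 alternatives and the others in all. Between shNsd2 and MCTP cells, Cldn4, Tmprss2, Krt19 and Krt8 differed by -0.72, -0.48, -0.71 and -0.46. Of 9 mesenchymal and fibroblast markers 7 were in the table, with Vim the most abundant, and the summed level was 17.18, 17.28 and 17.24 in control, 17.10, 17.12 and 17.00 in shNsd2 and 17.57, 17.41 and 17.66 in MCTP libraries. Of the 6 tested, 1 rose and 4 fell with shNsd2, with Pdgfra at 0.13, Zeb1 at -0.28, Col1a1 at -0.30 and Twist1 at -0.16, and 2 rose and 2 fell with MCTP, with Acta2 at 3.02, Vim at 0.32, Col1a1 at -0.33 and Zeb1 at -0.23, of which Vim and Zeb1 held in 9 and 7 of 15 alternatives. Pdgfra was weakly expressed in every library, with values from 3.97 to 4.14, near the filter limit of 3.78. The MCTP differences of Vim and Zeb1 were as small as 0.14 and -0.14 across the alternatives. Acta2, Vim, Twist1 and Pdgfra differed between shNsd2 and MCTP cells by -2.89, -0.48, -0.15 and 0.08, and the last 2 calls held in 13 and 5 of 15 alternatives. Of 5 markers of immune cells Cd68 alone was in the table, and it was at 6.50, 6.51 and 6.60 in control, 6.78, 6.78 and 6.72 in shNsd2 and 7.20, 7.15 and 7.44 in MCTP libraries. Of endothelial and lung epithelial markers, 1 of 4 each was in the table, Cdh5 below the filter in all libraries and Ager at values from 4.89 to 5.06, and the defining markers Ptprc, Pecam1 and Sftpc were not in the rows analysed here. The part of cell state in the values of the H3K36 enzymes was not tested.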

How the data were processed

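The authors deposited a table of values for 12842 genes, read here as log2 values scaled between libraries. The paper's methods name normalization and variance stabilization of counts in DESeq2 for cells sorted from mouse tumors and metastases. They do not tie this step to the libraries used here, and the file header names no transform. The submitters' processing notes list bcl2fastq 1.8.4, TopHat, Cufflinks, DESeq, DESeq2 and mm9, with no role or order. The table has no counts, so depth is unknown and no counts test was possible. Of 12 columns of values, 9 were used, grouped by sample titles, and 3 match no sample and were not used. A gene entered a comparison when 3 or more of its 6 libraries exceeded 3.78, the median of the lowest 10% of the table. Fits used R 4.3.3 and limma 3.58.1, whose eBayes step took a mean-variance trend. P-values were adjusted by the method of Benjamini and Hochberg across every gene in the fit, and the threshold was 0.05. The exact two-sided permutation test used scipy 1.17.1 and figures matplotlib 3.10.9 in Python 3.11.15. Coordinates, lengths and GC content came from GENCODE M21 (GRCm38), matched by Ensembl identifier for 12513 genes (97.4%), which is not the build in the notes. The fit was tested on simulated data with noise drawn independently for each gene and library. Such noise lacks the shift of whole libraries along GC content seen here, so that test cannot show how sound the calls are under it. The form of correction was tested there on a GC trend added to a group.

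The 8 enzymes and the other lists were chosen with earlier results of these data known. Named are the 8 enzymes, the 4 genes with the smallest adjusted p past the threshold in each other list and comparison, and the genes nearest to Whsc1 (5) and to each other enzyme past the threshold against control cells (3). Genes named beyond this rule were chosen after their values were seen: marker genes named for their level or absence, and readers that fell in both comparisons with control cells. Certain epithelial and prostate markers and some alleles of the line are not reported here, although the counts and the summed level of that list include those markers. Alternatives were no filter, all 9 libraries in 1 fit, the replicate number as a block, each library left out, eBayes with no trend, quantile normalization, libraries centred on their medians, corrections of each library for GC content or transcript length (lowess, span 0.3), other transcript lengths and the largest absolute difference as the measure of likeness. The GC correction with the transcript of the most exons was added after the data had been seen.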

Additional observations from a re-analysis of the deposited data

How the results depend on the processing

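Whsc1 kept its direction and its call in all 3 comparisons under every alternative but the GC correction with the longest transcript in MCTP against control cells, where it was -0.10 (adjusted p = 0.188; the other alternatives gave adjusted p from 0.000272 to 0.0318). With each library left out it ranged from -0.86 to -0.80 for shNsd2 and from -0.33 to -0.26 for MCTP against control, and from -0.56 to -0.49 for shNsd2 against MCTP. Its share of the 4 dimethyl-class writers moved to 46.1% in control, 32.8% in shNsd2 and 47.1% in MCTP cells with the longest protein-coding transcripts. Of the 5 genes most like Whsc1, 4 were also nearest by the largest absolute difference. Among the 3 genes nearest to each other enzyme, that measure put Rasal2 in place of Cbx5 for Nsd1. It put Pum2 in place of Strn for Ash1l and Rbm10 in place of Pigb for Kdm2b.

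With each library left out, 4340 to 6018 genes and 2 to 3 of the 8 enzymes were called for shNsd2 against control, 2046 to 7384 genes and 2 to 5 enzymes for MCTP against control, and 3391 to 7781 genes and 4 to 7 enzymes for shNsd2 against MCTP. For MCTP against control, 5 enzymes and 5699 genes were called with all 9 libraries in 1 fit, 5 and 5658 with the GC correction, 6 and 5580 with the transcript of the most exons, and 2 and 4348 under quantile normalization, against 3 and 4305 in the main fit. For shNsd2 against MCTP, quantile normalization gave 4 enzymes and 5387 genes, against 6 and 5276. The length correction moved the MCTP differences of Whsc1, Nsd1 and Ash1l from -0.30, -0.49 and -0.40 to -0.16, -0.30 and -0.22.

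The deviations of same-numbered libraries had mean correlations of -0.251, -0.185 and -0.361 for shNsd2 against control, MCTP against control and shNsd2 against MCTP. In each comparison 1 of 3 pairs was positive (0.247 for replicate 2, 0.612 for replicate 3 and 0.353 for replicate 1) and 2 were negative. These numbers neither show a pairing nor exclude one, because the deviations of 3 libraries within a group are not independent. With the replicate block, 4515, 3399 and 3794 genes and 2, 4 and 6 of the 8 enzymes were called for shNsd2 against control, MCTP against control and shNsd2 against MCTP, and Whsc1 was at -0.83, -0.30 and -0.53.

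Small differences changed sign. For shNsd2 against control, the GC correction, the length correction and the GC correction with the transcript of the most exons gave 0.018, 0.012 and 0.020 for Whsc1l1, 0.028, 0.013 and 0.029 for Nsd1, and 0.033, 0.0052 and 0.031 for Ash1l. With each library left out Whsc1l1 ranged from -0.070 to 0.026, Nsd1 from -0.073 to 0.037, Ash1l from -0.081 to 0.046 and Setd2 from -0.065 to 0.094. Setd2 was at -0.0065 under quantile normalization. For MCTP against control, Kdm2a was at 0.0062 with centring on medians, 0.0025 and 0.0095 with the GC corrections and 0.12 with the length correction, which also gave 0.0049 for Kdm2b. For shNsd2 against MCTP, the length correction gave -0.023 for Kdm2a and -0.0014 for Pdgfra. None of these values passed the test, and their causes were not tested. Of the values for other named genes under the alternatives, 7 of 480, 84 of 405 and 21 of 435 lost their call for shNsd2 against control, MCTP against control and shNsd2 against MCTP.

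Limits are the 3 libraries in each group, the unknown depth, the differing compound numbers of the MCTP libraries and the spread of MCTP replicate 2, which cannot be told apart from each other as sources of the differences within that group. Transcript levels do not measure the enzymes or the histone mark. Corrections used annotated transcripts, not those made in these cells.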
